A study of Mus musculus with 6 samples.

Results

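The genes described here are the myogenic basic helix-loop-helix (bHLH) factors and the proteins that partner or oppose them: Myod1, Myf5, Myf6 and Myog, the inhibitor genes Id1, Id2 and Id3, the repressor genes Msc and Twist1, and the partner gene Tcf3. They were chosen by symbol, with earlier results of these data known, and all 10 were found among the 54532 gene rows of the expression tables. The gene lists used below were chosen in the same way, so counts of members and listed genes beside all genes are a description. Of these 10, 9 passed the expression filter and were among the 14679 genes tested. Myf6 had too few reads for the filter.

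The transcripts of primary myoblasts, which are muscle progenitor cells grown from digested hind-limb muscle, were counted by bulk RNA-seq at day 2 of culture. The design had 3 WT libraries and 3 labelled eIF5A-KO. The knockout mice carried floxed eIF5A alleles (eIF5A f/f) with a tamoxifen-inducible Cre expressed from the Pax7 locus (Pax7CreERT2/+), so that deletion was directed at Pax7-expressing satellite cells and their progeny and not at other cells of the muscle. The controls were WT littermates, whose genotype is given in the study both as Pax7CreERT2/+ and as Pax7+/+;eIF5A f/f. Both groups came from mice 3 weeks old, and all cultures were grown in DMEM with 10% serum and FGF at 10 ug/ml. Whether each library came from a separate animal, and whether animals were pooled, is not given in the sources used here, so that p-values measure the spread between these libraries. eIF5A is a translation factor that helps the ribosome over sequences that are slow to join, such as adjacent prolines, and the comparison of the 2 groups asks how transcript levels differ when it is targeted.

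The myogenic factors bind DNA as pairs with E proteins, such as those encoded by Tcf3, at short sequences called E-boxes. Myf5 and MyoD (Myod1) commit cells to the muscle lineage, myogenin (Myog) drives the differentiation of committed myoblasts, and MRF4 (Myf6) is known best from late differentiation and mature fibres. Id proteins have the helix-loop-helix but not the basic, DNA-binding region. They hold E proteins in pairs that cannot bind an E-box, and their genes are well-known targets of BMP signalling. Musculin (Msc) and Twist1 are bHLH proteins that can bind DNA or E proteins and repress the muscle programme.

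Between-group differences stood out most for Myog and Id2, so the sequence before these genes is shown. Promoter windows in RefSeq (GRCm38.p6, from 250 bases before the start site to 50 after it) matched 6 of the 10 genes, namely Myog, Myf5, Id2, Id3, Twist1 and Tcf3. The stretch of each window that lies outside annotated exons is given 5′ to 3′ on the gene's own strand, at chr1:134289754-134289988 (plus strand) for Myog and chr12:25096254-25096342 (minus strand) for Id2. The Id2 stretch lies within an intron of a longer annotated Id2 transcript. Capitals mark E-boxes (CANNTG) and, in Myog, a MEF3 site (TCAGGTTTC), a regulatory sequence of muscle genes.
Myog: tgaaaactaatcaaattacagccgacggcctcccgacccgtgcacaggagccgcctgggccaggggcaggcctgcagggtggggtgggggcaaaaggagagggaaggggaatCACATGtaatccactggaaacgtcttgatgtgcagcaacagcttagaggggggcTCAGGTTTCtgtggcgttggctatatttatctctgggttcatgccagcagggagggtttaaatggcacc
Id2: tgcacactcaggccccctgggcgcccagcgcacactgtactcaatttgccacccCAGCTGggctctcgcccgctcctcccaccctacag

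In the Myog window the E-box CACATG began at base -138 and the MEF3 site at base -84 from the RefSeq start, and another E-box, CAGTTG, began at base -12 inside the exon annotated for the deposited gene model. The Id2 window held 1 E-box, CAGCTG, at base -196. Tcf3 held 1 E-box, and the windows of Myf5, Id3 and Twist1 held no CANNTG. E-boxes are common: 72.3% of 32851 mouse promoter windows of the same length held at least 1 CANNTG and 16.3% held CAGCTG on either strand (CAGCTG matches are also CANNTG matches), whereas 0.429% held TCAGGTTTC on either strand. These matches describe the letters in the windows and were not measured as binding sites.

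Each gene lies at the same GRCm38 (mm10) coordinates in the deposited tables and in GENCODE. Myog has 3 exons on the plus strand of chromosome 1 (134289989 to 134292548), and Id2 has up to 4 exons on the minus strand of chromosome 12 (25093799 to 25097140). Myf5 and Myf6 are neighbours on the minus strand of chromosome 10, with 6718 bases between them. Of the 10 genes, 8 had no annotated transcript of another gene that matched over at least 200 bases at 90% identity. Id2 had such a copy in Gm6175 (91.8% identity over 380 bases), which had 0 counts in every library. Msc is overlapped on the opposite strand by Gm9947, which had 0 to 4 counts, and because the strand setting of the counting is not given in the sources used here, the Msc values are uncertain. None of the 10 genes had a run of 3 or more adjacent proline codons in its longest annotated coding sequence, compared with 19.9% of 21762 genes that did, and MyoD had 11.6% proline codons of 318.

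Total counts were between 16281216 and 17734551 per library. Values are given as CPM (reads relative to library size, with TMM factors) within a gene, and as FPKM (the scale of the authors, which also divides by gene length) between genes. The targeted transcript did not differ by label: Eif5a was at 986 to 1603 CPM in WT and 1059 to 1459 CPM in the libraries labelled eIF5A-KO (log2 fold change 0.02, edgeR adjusted p = 0.993). The tables hold a single value per gene, so reads from the floxed exons could not be counted apart, and all directions below refer to labels. WT replicate 1 stood apart, with 5.75% of its counts from mitochondrial transcripts against 2.11% to 3.50% in the other 5 libraries. In edgeR's quasi-likelihood test with Benjamini-Hochberg adjustment, 0.0204% of all tested genes (3 genes) had an adjusted p under 0.05. Calls were more frequent over all genes without WT replicate 1, where 711 genes were higher and 819 lower at an unadjusted p under 0.05 and 8 and 48 at an adjusted p under 0.05, of 15056 tested, against 402, 590, 1 and 2 with it, and counts given below without this library share that shift.

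No member of the family passed that threshold. Myog and Id2 had unadjusted p-values under 0.05, both were lower in the libraries labelled eIF5A-KO, and they were the 48th and 49th of 14679 genes by p. The unadjusted threshold was passed by 6.76% of all tested genes, of which 2.74% were higher and 4.02% lower, and by 2 of the 9 tested members. Groups did not overlap for 12.5% of all tested genes, 5.68% with every eIF5A-KO library above every WT library and 6.83% with every one below, and for the same 2 members. The criterion of the study, a fold above 2 with an unadjusted p under 0.05, was applied here to the edgeR estimates and p-values. It was met in the lower direction by 1.32% of all tested genes and by Myog alone among the members. The median log2 fold change was 0.13 over the 9 members and -0.01 over all tested genes.

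Myog had the widest difference. Its level was 14.4, 76.3 and 32.2 CPM in WT replicates 1 to 3 and 8.93, 5.09 and 2.10 CPM in replicates 1 to 3 labelled eIF5A-KO, from 37 to 1439 reads per library. Every library labelled eIF5A-KO was below every WT library, although the lowest WT library was nearer to the highest eIF5A-KO library than to the other WT libraries. Means with SD were 41.0 ± 31.9 CPM for WT (n = 3) and 5.37 ± 3.43 CPM for eIF5A-KO (n = 3). The log2 fold change was -2.94 (SE 0.64, 95% interval -4.38 to -1.50), a ratio of 0.131 (0.0482 to 0.355). In edgeR the unadjusted p of Myog was 0.00119 and the adjusted p 0.362. The exact permutation test (two-sided) on mean CPM gave p = 0.1, the smallest that 3 against 3 libraries allow. Leaving out WT replicate 2, the library with most Myog, brought the log2 fold change to -2.12 (adjusted p = 0.372), and without WT replicate 1 it was -3.33 with an adjusted p of 0.0182 in edgeR.

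Myod1 was the most abundant of the myogenic factors and overlapped between groups. It had 264, 550 and 437 CPM in WT and 349, 272 and 196 CPM in the libraries labelled eIF5A-KO. WT replicate 1 lay below eIF5A-KO replicates 1 and 2. The estimate, a log2 fold change of -0.61 with a 95% interval of -1.28 to 0.06, did not pass the test (edgeR adjusted p = 0.794). With single libraries left out the estimate for Myod1 ranged from -0.36 without WT replicate 2 (adjusted p = 0.705) to -0.85 without WT replicate 1 (adjusted p = 0.217). The ratio of Myog to Myod1 was also read within each library: per 100 FPKM of Myod1 there were 6.80, 17.3 and 9.19 FPKM of Myog in WT and 3.18, 2.33 and 1.33 FPKM in the libraries labelled eIF5A-KO. These values did not overlap between the groups.

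Myf5, the other determination factor, had 12.1, 13.4 and 11.6 CPM in WT and 20.3, 11.7 and 8.62 CPM in the libraries labelled eIF5A-KO. The WT values lay within the range of the eIF5A-KO values, whose coefficient of variation was 44.7% against 7.49% in WT. The log2 fold change of Myf5 was 0.13 (95% interval -0.54 to 0.80, edgeR adjusted p = 0.974), and it was -0.27 without eIF5A-KO replicate 1. Myf6 was barely detected, with 10, 7 and 3 reads in WT and 3, 3 and 2 reads in the libraries labelled eIF5A-KO. The exact permutation test (two-sided) on its CPM gave p = 0.3, where 0.1 is the smallest possible.

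**Figure D1:**
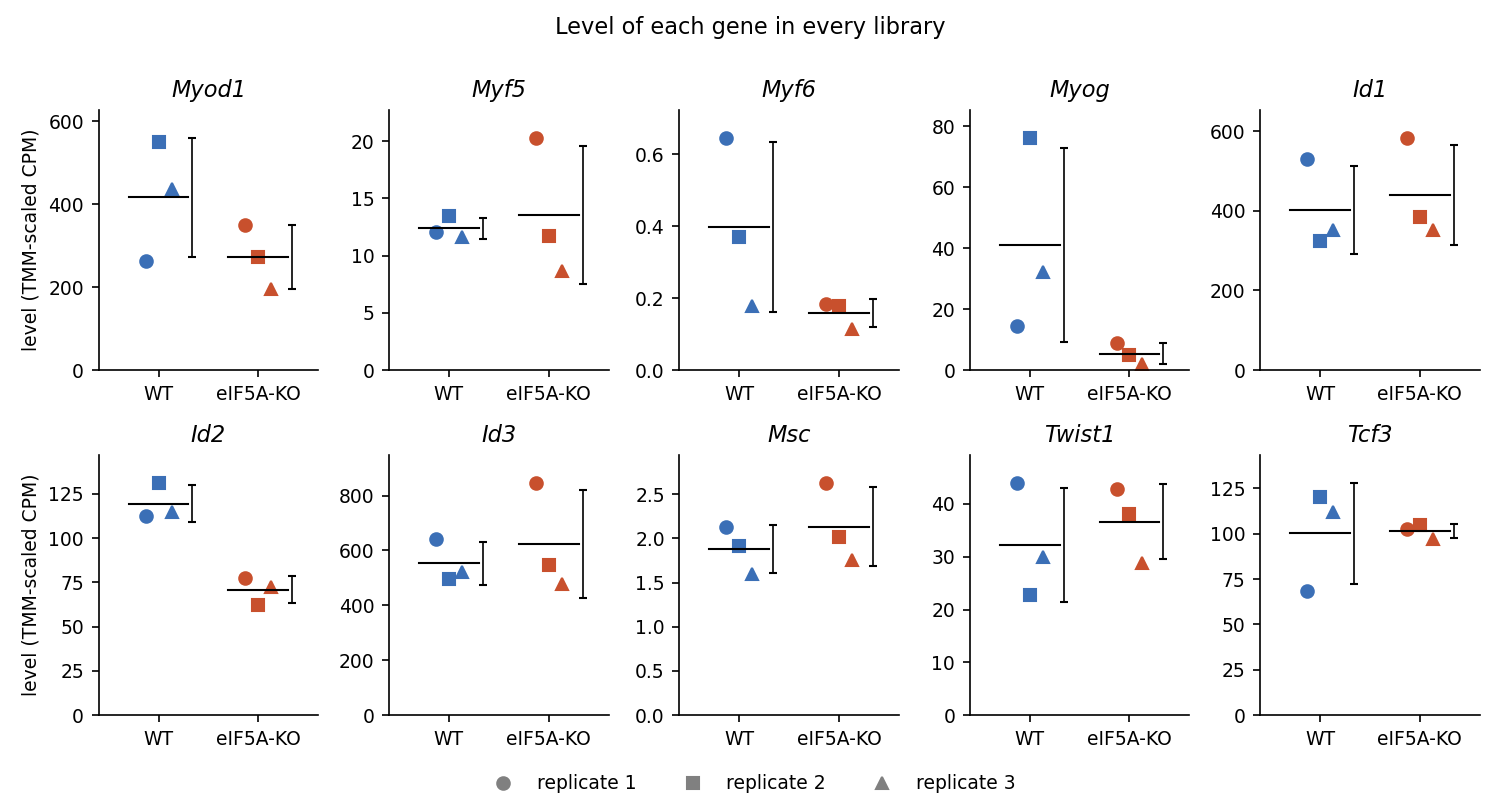
Level of each gene (y axis, TMM-scaled CPM, scale set per gene and starting at 0) in every library, by genotype label (x axis); points are libraries with the marker shape giving the replicate number, horizontal lines are means and error bars are SD (n = 3). Only Myog and Id2 have no overlap between groups, with Id2 at 113 to 131 CPM in WT and 62.5 to 77.6 CPM in the libraries labelled eIF5A-KO.

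Among Id1, Id2 and Id3, Id2 alone was separated by label. Id2 had 113, 131 and 115 CPM in WT and 77.6, 62.5 and 72.3 CPM in the libraries labelled eIF5A-KO, from 1056 to 2476 reads. Both groups were tight, with coefficients of variation of 8.55% and 10.8%, and the gap between them was wider than the spread within either. Means with SD were 120 ± 10.2 CPM for WT (n = 3) and 70.8 ± 7.66 CPM for eIF5A-KO (n = 3). The log2 fold change was -0.76 (SE 0.17, 95% interval -1.13 to -0.38), a ratio of 0.592 (0.457 to 0.767). In edgeR the unadjusted p was 0.00125 and the adjusted p 0.362, the exact permutation test (two-sided) gave p = 0.1, and DESeq2 gave an adjusted p of 0.0152. Over the 16 alternatives the log2 fold change of Id2 stayed between -0.82 and -0.66, with adjusted p-values from 0.0152 to 0.882.

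Id1 and Id3, the abundant Id genes, overlapped between groups. Id1 had 530, 326 and 351 CPM in WT and 584, 386 and 351 CPM in the libraries labelled eIF5A-KO (log2 fold change 0.13, 95% interval -0.46 to 0.72, edgeR adjusted p = 0.967). Id3 had 640, 497 and 520 CPM in WT and 847, 545 and 477 CPM in the libraries labelled eIF5A-KO (log2 fold change 0.17, 95% interval -0.37 to 0.72, edgeR adjusted p = 0.949). In each group replicate 1 was the highest library for both genes, and without eIF5A-KO replicate 1 both estimates were below 0, at -0.12 for Id1 and -0.10 for Id3. Per 100 FPKM of Id1 there were 10.1, 19.2 and 15.5 FPKM of Id2 in WT and 6.32, 7.72 and 9.80 FPKM in the libraries labelled eIF5A-KO. The values of Id2 relative to Id1 did not overlap, with a narrow gap between WT replicate 1 and eIF5A-KO replicate 3.

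The repressors and the partner gene overlapped between labels, with wide intervals. Twist1 had 44.0, 22.7 and 30.0 CPM in WT and 42.8, 38.1 and 28.9 CPM in the libraries labelled eIF5A-KO. Its log2 fold change was 0.18 (95% interval -0.40 to 0.77, edgeR adjusted p = 0.949), and it was -0.01 without WT replicate 2. Msc was low, at 2.13, 1.91 and 1.59 CPM in WT and 2.63, 2.01 and 1.76 CPM in the libraries labelled eIF5A-KO, from 27 to 43 reads (log2 fold change 0.18, 95% interval -0.54 to 0.90, edgeR adjusted p = 0.964). With single libraries left out, that of Msc ranged from 0.015 without eIF5A-KO replicate 1 to 0.31 without eIF5A-KO replicate 3. Tcf3 had 68.3, 120 and 112 CPM in WT and 102, 105 and 97.1 CPM in the libraries labelled eIF5A-KO. Tcf3 was thus level across the eIF5A-KO libraries (coefficient of variation 3.95%) and varied in WT (27.9%) through its low value in replicate 1. Its log2 fold change was 0.02 (95% interval -0.48 to 0.51, edgeR adjusted p = 0.993), and it was below 0 with library size alone (-0.033) and without WT replicate 1 (-0.19).

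**Figure D2:**
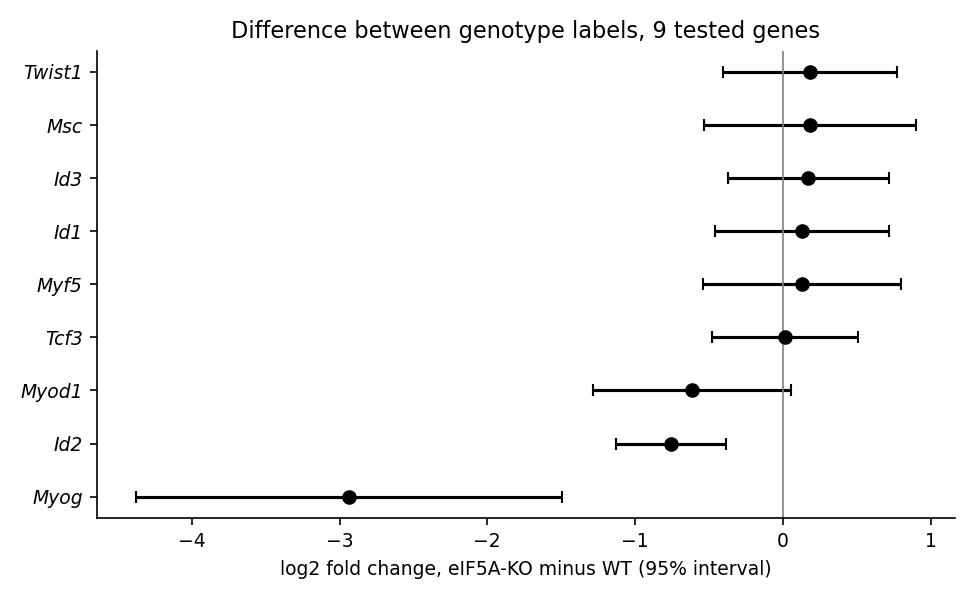
Log2 fold change of libraries labelled eIF5A-KO minus WT (x axis; 0 is no difference) for the 9 tested genes (y axis), from edgeR with 3 libraries per group; points are estimates and bars 95% intervals. The intervals of Myog (-4.38 to -1.50) and Id2 (-1.13 to -0.38) lie below 0 and the other 7 cross it, and no adjusted p was under 0.05.

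The 10 genes spanned a wide range of levels. By mean FPKM over the 6 libraries the order was Id1 (360), Id3 (325), Myod1 (184), Id2 (38.7), Tcf3 (24.7), Twist1 (21.0), Myog (15.4), Myf5 (6.17), Msc (0.781) and Myf6 (0.218). The ranges of neighbours in this order overlapped between Id1 and Id3, Id3 and Myod1, Id2 and Tcf3, Tcf3 and Twist1, Twist1 and Myog, and Myog and Myf5. They did not overlap between Myod1 and Id2, Myf5 and Msc, or Msc and Myf6. Myog spanned the widest range for its place, from 1.40 to 50.5 FPKM, so that it exceeded Tcf3 in WT replicate 2 and lay below Myf5 in every library labelled eIF5A-KO.

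The balance of the Id genes and the myogenic factors was read within each library as the summed FPKM of Id1, Id2 and Id3 over that of the 4 myogenic factors. It was 5.45, 1.73 and 2.45 in WT and 4.95, 4.26 and 5.41 in the libraries labelled eIF5A-KO. WT replicates 2 and 3 were low, and WT replicate 1 was the highest of all 6, so that the groups overlapped. MyoD transcripts made up 89.9%, 83.6% and 89.6% of the myogenic factor FPKM in WT and 92.2%, 94.1% and 94.9% in the libraries labelled eIF5A-KO. The share of Myog was 6.11%, 14.5% and 8.23% in WT and 2.93%, 2.19% and 1.27% in the libraries labelled eIF5A-KO. Id2 made up 5.38%, 8.80% and 7.34% of the Id FPKM in WT and 3.16%, 3.87% and 4.95% in the libraries labelled eIF5A-KO. None of these 3 shares overlapped between the groups. The MyoD and Myog shares are parts of the same sum and so are not separate results, and the level of Myod1 itself overlapped. The Id2 share likewise carries the separation of Id2 already given.

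**Figure D3:**
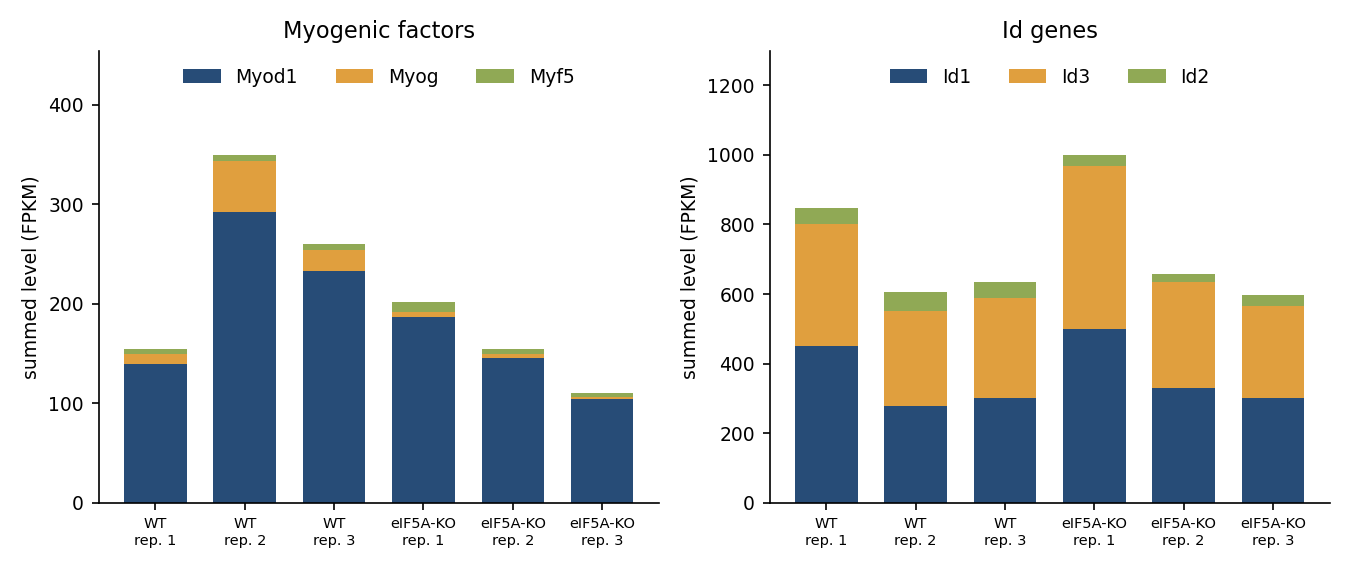
Summed FPKM (y axis, linear from 0) of Myod1, Myog and Myf5 (left) and of Id1, Id3 and Id2 (right) in each library (x axis); the coloured parts of a bar are the genes, and Myf6 is too low to draw. WT replicate 1 has a low myogenic factor bar, like the libraries labelled eIF5A-KO, and Myog is visible mainly in WT replicates 2 (50.5 FPKM) and 3 (21.4 FPKM).

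Libraries of the same label also differed in a shared way. In WT, Myod1, Myog, Id2 and Tcf3 were all highest in replicate 2 and lowest in replicate 1, whereas Id1, Id3 and Twist1 were highest in replicate 1 and lowest in replicate 2. In the libraries labelled eIF5A-KO, 7 of the 9 tested members were highest in replicate 1 and lowest in replicate 3, Myod1, Myog, Id1 and Id3 among them. The highest library exceeded the lowest 5.30-fold in WT and 4.26-fold in eIF5A-KO libraries for Myog, against 1.16-fold and 1.24-fold for Id2. WT replicate 1, the library with the high mitochondrial share, had the lowest Myod1, Myog, Id2 and Tcf3 of the WT group, and the part of this share in those values was not tested.

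Genes that act upstream of the myogenic factors mostly had estimates below 0 (7 of 10 tested). Of 11 listed activators of Myf5 and Myod1, 5 had an unadjusted p under 0.05, all lower, and none passed the adjusted threshold. The median log2 fold change of the 10 was -0.84, and it was -0.34 with limma on log2(FPKM + 1), a scale that understates the change of low genes. Without WT replicate 1, 7 of the 10 were lower and 1 was higher at an unadjusted p under 0.05, with 2 past the adjusted threshold in edgeR. Without WT replicate 2, 5 were lower and 1 was higher at an unadjusted p under 0.05. Pitx3, a homeodomain factor of developing muscle, had 6.85, 27.7 and 18.3 CPM in WT and 3.55, 3.55 and 1.02 CPM in the libraries labelled eIF5A-KO (log2 fold change -2.70, edgeR adjusted p = 0.331). Pitx3 did not overlap between the groups. Pax7, the satellite cell factor that also drives the Cre, had 12.9, 51.7 and 25.2 CPM in WT and 12.97, 8.29 and 10.6 CPM in the libraries labelled eIF5A-KO, where WT replicate 1 overlapped the other group (log2 fold change -1.50, edgeR adjusted p = 0.484). If the controls were Pax7+/+, the Cre at the Pax7 locus and the targeting of eIF5A cannot be told apart in the Pax7 values. Eya4 (-1.10) and Six4 (-0.84), named after their values were seen, also had an unadjusted p under 0.05. Six5 (0.39), Eya1 (0.44) and Eya2 (0.43), named likewise, had estimates above 0 without such a p.

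Listed differentiation genes that MyoD and myogenin switch on mostly had estimates below 0 too. Of 27, 24 were tested, 22 had an estimate below 0, 11 had an unadjusted p under 0.05, all lower, and none had an adjusted p under 0.05. Rbm24, an RNA-binding protein of muscle differentiation, had 11.9, 35.6 and 18.4 CPM in WT and 3.24, 2.25 and 2.32 CPM in the libraries labelled eIF5A-KO (log2 fold change -3.08, edgeR adjusted p = 0.0768). Tnnt2, a troponin of embryonic muscle, had a log2 fold change of -2.08 and Chrna1, the acetylcholine receptor alpha subunit, one of -1.62 (edgeR adjusted p = 0.321 and 0.397), and neither overlapped between the groups. Des, which codes for desmin and was the most abundant by CPM, had 197, 430 and 310 CPM in WT and 439, 296 and 189 CPM in the libraries labelled eIF5A-KO (log2 fold change -0.02, edgeR adjusted p = 0.993). Per 100 FPKM of Des there were 18.4, 44.5 and 26.1 FPKM of Myog in WT and 5.11, 4.32 and 2.79 FPKM in the libraries labelled eIF5A-KO, without overlap. For Myod1 these values were 270.5, 257.8 and 283.9 FPKM in WT and 160.6, 185.8 and 209.1 FPKM in the libraries labelled eIF5A-KO, also without overlap. Myod1 relative to Myf5 overlapped between the groups. The median log2 fold change of the 24 was -1.005, and it depended on WT replicate 2, without which it was -0.37 with 7 genes at an unadjusted p under 0.05. With limma on log2(FPKM + 1) it was -0.46, and with at least 10 counts in every library, which left 21 genes, it was -0.60. Without WT replicate 1 it was -1.29, with 16 of 25 tested genes lower at an unadjusted p under 0.05 and 5 at an adjusted p under 0.05 in edgeR, and without eIF5A-KO replicate 3 there was 1 gene higher at an unadjusted p under 0.05 beside 11 lower.

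Other inhibitors of myogenic bHLH factors lay mostly above WT in estimate. Of 13 listed, 12 were tested, 6 had an unadjusted p under 0.05, all higher, none passed the adjusted threshold, and the median log2 fold change was 0.53 (0.33 without WT replicate 1). Hes1, a Notch-responsive repressor, had 31.0, 52.3 and 49.97 CPM in WT and 177, 86.1 and 69.0 CPM in the libraries labelled eIF5A-KO (log2 fold change 1.32, edgeR adjusted p = 0.407). Bhlhe40, a bHLH repressor, had 70.6, 88.8 and 83.5 CPM in WT and 151, 122 and 117 CPM in the libraries labelled eIF5A-KO (log2 fold change 0.68, edgeR adjusted p = 0.398). Both were without overlap, and Twist2, the paralogue of Twist1, overlapped between groups (log2 fold change 0.86, edgeR adjusted p = 0.628). Without eIF5A-KO replicate 1, which had the highest Hes1 and Bhlhe40, 2 of the 12 had an unadjusted p under 0.05. Over all genes the number higher at this threshold also fell, from 402 of 14679 to 185 of 15062.

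BMP pathway genes, which lie upstream of the Id genes, were mixed. Of 16 listed, 15 were tested, 3 had an unadjusted p under 0.05, all higher, none had an adjusted p under 0.05, and the median log2 fold change was 0.15. Smad6, an inhibitory SMAD and BMP target, had 42.7, 31.9 and 38.4 CPM in WT and 86.6, 66.5 and 65.3 CPM in the libraries labelled eIF5A-KO (log2 fold change 0.95, edgeR adjusted p = 0.323). The secreted BMP antagonist Grem1 and the ligand Bmp4 had log2 fold changes of 1.29 and 0.55 (edgeR adjusted p = 0.397 and 0.520), and all 3 genes were without overlap. The signal transducer Smad1, the most abundant by CPM, had a log2 fold change of -0.15 (edgeR adjusted p = 0.949). The median of the list was 0.31 without WT replicate 2 and 0.10 without eIF5A-KO replicate 3. Without WT replicate 1 or eIF5A-KO replicate 3, 1 gene was lower at an unadjusted p under 0.05 beside 3 higher, and without WT replicate 1 there was 1 gene at an adjusted p under 0.05 in edgeR.

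Partners and co-factors had no gene at an unadjusted p under 0.05. Among the other E proteins and Id4, the log2 fold changes were -0.37 for Tcf12, 0.14 for Tcf4 and 0.51 for Id4 (edgeR adjusted p = 0.820, 0.966 and 0.809). Id4 was low, at 4.20, 3.87 and 4.55 CPM in WT and 5.32, 5.03 and 7.65 CPM in the libraries labelled eIF5A-KO, and its groups did not overlap. The 12 co-factors had a median log2 fold change of 0.04, which ranged with single libraries left out from -0.13 without WT replicate 1 to 0.20 without WT replicate 2, and was 0.14 with limma-voom and with the replicate block. Without WT replicate 1, 1 co-factor was lower at an unadjusted p under 0.05. The 12 included Smarca4, a chromatin remodelling ATPase and the most abundant by CPM (0.07), Smarcd3, a remodelling subunit that binds MyoD (-0.43), the acetyltransferase gene Kat2b (-0.29) and Rb1, the retinoblastoma protein gene (0.25).

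**Figure D4:**
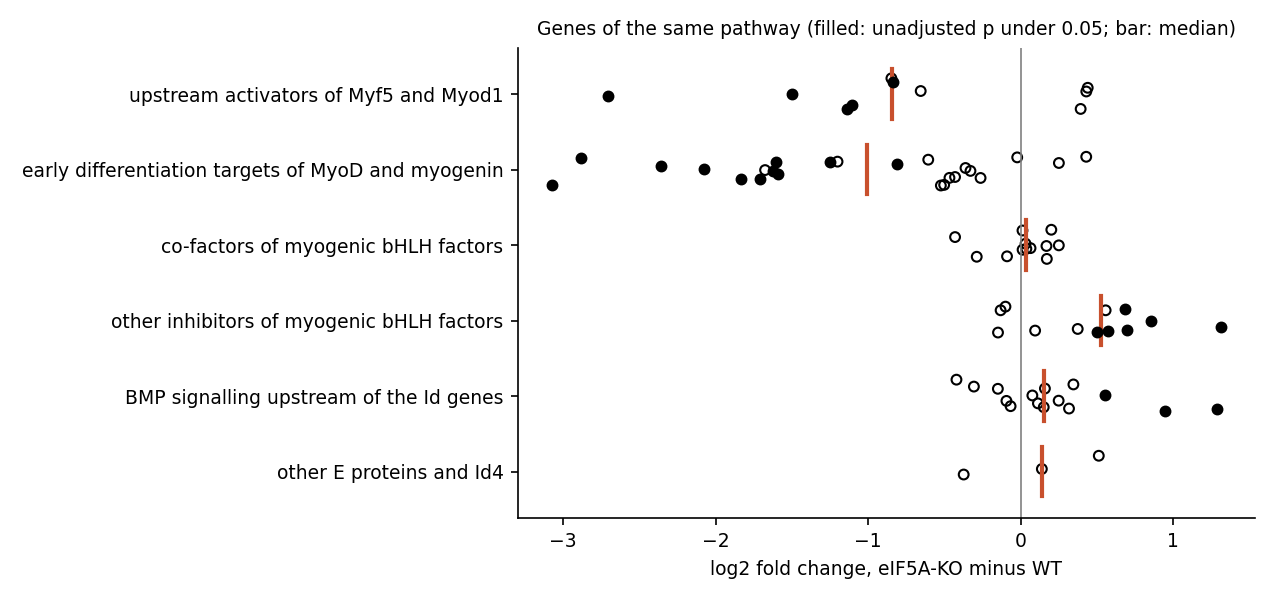
Log2 fold change of libraries labelled eIF5A-KO minus WT (x axis) for the tested genes of 6 lists around the myogenic bHLH factors (y axis; vertical scatter within a list has no meaning); filled points have an unadjusted p under 0.05 in edgeR and bars are medians. Filled points lie below 0 for upstream activators (5 of 10) and differentiation genes (11 of 24) and above 0 for other inhibitors (6 of 12) and BMP genes (3 of 15).

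Markers of other cell types were read beside these results, because in bulk samples fewer cells of a type and less RNA per cell cannot be told apart. The cultures held satellite cell and myoblast markers at summed levels of 968 to 1604 CPM in WT and 810 to 1470 CPM in the libraries labelled eIF5A-KO. Of 9 tested markers 8 had estimates below 0, and Met (log2 fold change -1.13) and Pax7 had an unadjusted p under 0.05, both lower. Without WT replicate 1, 8 of 10 tested satellite cell markers had an unadjusted p under 0.05, all lower, and 3 an adjusted p under 0.05 in edgeR. With any other single library left out, 2 to 3 had an unadjusted p under 0.05, all lower, and none an adjusted p under 0.05. The median log2 fold change of these markers was -0.53, and it was -0.30 without WT replicate 2. No marker of this or of the other 7 lists was at 0 in any library.

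Endothelial markers were abundant, at 1419 to 2835 CPM in WT and 2425 to 3531 CPM in the libraries labelled eIF5A-KO. All 9 endothelial markers were above 0 on the log2 fold change scale (median 0.42, and 0.20 without WT replicate 1), and Emcn had an unadjusted p under 0.05. Mural cell markers summed to 425 to 782 CPM in WT and 817 to 940 CPM in the libraries labelled eIF5A-KO, without overlap. All 9 mural markers were higher in estimate, 4 at an unadjusted p under 0.05, and Myh11, the smooth muscle myosin heavy chain, had 10.5, 11.0 and 10.5 CPM in WT and 29.2, 28.3 and 34.2 CPM in the libraries labelled eIF5A-KO (log2 fold change 1.52, edgeR adjusted p = 0.0486, with adjusted p-values from 3.7e-10 to 0.315 over the alternatives). Schwann cell markers summed to 186 to 263 CPM in WT and 303 to 338 CPM in the libraries labelled eIF5A-KO, also without overlap, with all 5 higher in estimate and 2 of them, Ngfr included, at an unadjusted p under 0.05.

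The remaining marker lists overlapped between groups in their sums. Fibroblast markers summed to 2855 to 3628 CPM in WT and 2957 to 3532 CPM in the libraries labelled eIF5A-KO, with 4 of 9 higher in estimate and Col1a1 and Col6a3 at an unadjusted p under 0.05, both higher. Macrophage markers summed to 65.2 to 139 CPM and 68.6 to 173 CPM (7 of 9 higher in estimate, Cd68 at an unadjusted p under 0.05), and tendon markers to 259 to 334 CPM and 271 to 346 CPM (1 of 4 higher in estimate, Scx lower at an unadjusted p under 0.05). Adult fibre markers summed to 60.8 to 141 CPM in WT and 48.2 to 74.3 CPM in the libraries labelled eIF5A-KO, with all 7 lower in estimate and Myh1 at an unadjusted p under 0.05. With single libraries left out, the number of markers at an unadjusted p under 0.05 was 0 to 2 for endothelial cells and macrophages, 1 to 2 for Schwann cells, 1 to 3 for fibroblasts and adult fibres and 0 to 1 for tendon cells. It was 2 to 8 for satellite cells and 3 to 5 for mural cells. Myoblast marker estimates were thus mostly below 0 and endothelial, mural and Schwann cell marker estimates above 0 beside the lower Myog and Id2, and the part of cell composition in these differences was not tested.

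Other genes followed the profile of Myog across the 6 libraries. Likeness was the root mean square difference of centred log2(CPM + 1) values among tested genes with a mean of at least 5 CPM. The nearest to Myog were Pitx3 (0.33), Lrrn1, a leucine-rich repeat membrane protein gene (0.35), and Iqsec3 (0.41), against a root mean square of 1.53 for the profile of Myog itself. Lrrn1 had 6.92, 32.4 and 15.4 CPM in WT and 4.16, 2.37 and 1.87 CPM in the libraries labelled eIF5A-KO. Iqsec3 had 14.6, 63.9 and 31.7 CPM in WT and 13.03, 8.23 and 4.82 CPM in the libraries labelled eIF5A-KO. Like Myog, all 3 genes were highest in WT replicate 2 and lowest in eIF5A-KO replicate 3, a likeness that their selection by this profile favours.

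**Figure D5:**
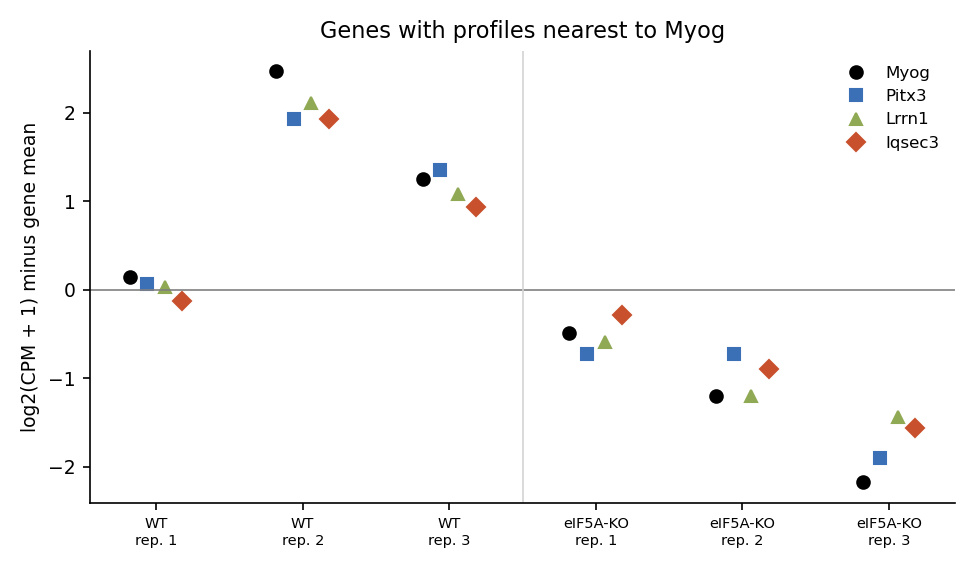
Centred log2(CPM + 1) (y axis; 0 is the mean of a gene over the 6 libraries) of Myog and the 3 genes with the nearest profiles in each library (x axis; markers of a library are set side by side). Pitx3, Lrrn1 and Iqsec3 lie within a root mean square difference of 0.33 to 0.41 of Myog, all with their highest value in WT replicate 2.

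For Id2 the nearest profiles were those of Dna2 (0.13), which codes for a DNA nuclease and helicase, Mroh2a (0.13) and Ddx11 (0.13), a DNA helicase gene, against 0.39 for Id2 itself. Dna2 had 10.7, 12.6 and 10.2 CPM in WT and 5.57, 6.04 and 6.18 CPM in the libraries labelled eIF5A-KO. For Myod1 they were Serinc2 (0.10), Iffo1 (0.12) and Cd82 (0.13), a tetraspanin gene, against 0.49 for Myod1 itself. Cd82 had 59.8, 125 and 95.7 CPM in WT and 76.8, 62.7 and 55.1 CPM in the libraries labelled eIF5A-KO. For Id1 they were Shf, Dact1 and Nov, for Id3 Tradd, Plpp2 and Hoxc9, for Myf5 Cdk10, Timp4 and Nudt18, for Twist1 Acat2 and Prdx6, for Msc Habp4, Acadl and Map3k12, and for Tcf3 Gga3, Gpr161 and Kmt5c. These likenesses rest on 6 libraries that also differ in cell type markers, and they are a description.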

How the data were processed

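Bulk RNA-seq of 3 WT and 3 eIF5A-KO primary myoblast cultures was analysed. Per the labels and methods, the authors isolated RNA with TRIzol, made NEBNext Ultra libraries, mapped reads to mm10 with HISAT (from the submitters' processing notes; its version, and the strand setting, are not given in the sources used here) and named DEGSeq2 for gene coverage. They deposited raw counts per gene and, in a second table, FPKM as computed by the authors, whose denominators equalled a median-of-ratios size factor times the geometric mean of the totals.

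The counts were tested in edgeR 4.0.16 (R 4.3.3): filterByExpr, TMM factors, the quasi-likelihood F test (prior count 0.125) and Benjamini-Hochberg adjustment over 14679 genes. CPM use TMM factors, errors are SD unless named SE, and intervals are at 95%. The code was tested on simulated data. Promoter windows and gene models came from RefSeq (GRCm38.p6) and GENCODE, and copies were sought with blastn 2.17.0.

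Named genes were all members, per list up to 3 genes with the lowest p and the one most abundant by CPM, and per tested member the 3 genes with the nearest profiles. Eya1, Eya2, Eya4, Six4 and Six5 were named outside these rules, after their values were seen. Members, lists and rules were chosen with earlier results of these data known. The 16 alternatives were other scaling (DESeq2 1.42.0 size factors, upper-quartile, library size alone), other filters, DESeq2, limma 3.58.1 (voom, log2(FPKM + 1), log2(FPKM + 0.1)), a replicate block and each library left out. Reads carry no molecular identifiers. A few genes that these rules select are not reported here.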

Additional observations from a re-analysis of the deposited data

How the results depend on the processing

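Myog and Id2 stayed below WT in all 16 alternatives, with an unadjusted p under 0.05 in each, and Myod1 was lower in all 16, with such a p in 4. The number of members with an adjusted p under 0.05 was 0 in edgeR and 1 in 4 alternatives: Id2 with DESeq2 (adjusted p = 0.0152, where Myog had 0.0592), and Myog with no filter (7.3e-27), with the replicate block (0.0331) and without WT replicate 1 (0.0182). With no filter edgeR gave every gene the spread fitted to all genes (a median of 107824 total degrees of freedom, prior and residual together, against 9.35 in the filtered fit), so that the spread of Myog between its own replicates did not enter this p, and the counts of calls from that fit below carry the same limit. Single libraries left out gave 0 to 1 such members. The log2 fold change of Myog ranged from -3.50 to -2.12 and that of Id2 from -0.82 to -0.66 over the alternatives. Estimates that turned sign were those of Tcf3 with library size alone (-0.033) and of 5 members with single libraries left out. Tcf3 ranged from -0.19 without WT replicate 1 to 0.17, Twist1 from -0.014 without WT replicate 2 to 0.48, and Myf5 from -0.27 to 0.37, Id1 from -0.12 to 0.39 and Id3 from -0.10 to 0.34, each lowest without eIF5A-KO replicate 1.

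Over all genes, 1 was higher and 2 were lower at an adjusted p under 0.05. Both counts were 0 with DESeq2 size factors, library size alone, at least 10 counts in every library, limma-voom and limma on either log2(FPKM) scale. They were 65 and 184 with no filter (677 and 1026 unadjusted, against 402 and 590), and 19 and 69 with DESeq2. Leave-one-out fits gave 0 to 8 higher and 0 to 48 lower, and 185 to 711 higher and 400 to 819 lower at an unadjusted p under 0.05, the higher count being lowest without eIF5A-KO replicate 1 and highest without WT replicate 1. The causes of the other shifts were not tested. With 3 libraries per group, a difference the size of those of Id1, Id3, Twist1, Msc or Tcf3 lay within the spread between libraries.

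The replicate numbers showed no clear pairing of the libraries: deviations of same-numbered libraries correlated at 0.08, -0.16 and 0.10 (WT with eIF5A-KO replicates 1 to 3). Libraries with different numbers correlated at -0.27 to 0.27. With 3 libraries per group these values cannot exclude a pairing. A fit with the replicate number as a block called 7 genes higher and 17 lower, and gave a negative F value for 2 of 14679 genes.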
